A study of Mus musculus with 2 samples.

Results

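CD8 T cells were taken as a gate on the single-cell RNA sequencing of CD45+ immune cells from MC38 tumors. MC38 is a colon carcinoma line of the mouse. Members were chosen by their own RNA. A barcode, which marks 1 droplet, had to hold at least 1000 UMIs (captured RNA molecules counted once each by their molecular tag), at most 25% mitochondrial UMIs, at least 1 UMI of Cd3d or Cd3g, at least 1 UMI of Cd8a or Cd8b1, no UMI of Cd4 or Foxp3, and at most 5 UMIs of C1qa, C1qb and C1qc together. The gate held 398 of 8090 barcodes that passed the limits on UMIs and mitochondrial share, 224 of them Control and 174 IR. Control tumors were not irradiated, and IR tumors had received a single dose of 20 Gy 4 days before collection. Mice of both groups were labelled WT, a name the study uses for Ythdf2 fl/fl mice without Cre, and per the methods the experiments used males and females of 8 to 10 weeks. Tumors were pooled within each group, leaving 1 library for each. Differences therefore have no replicate check, no test was run, and each interval is a 95% interval that covers counting error only. The labels give the cell type as CD45+CD11b+Ly6Chi and the protocol names a CD45+ sort, and T cells were present in both libraries.

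CD8 T cells recognize peptides on MHC class I through a T cell receptor that signals with the CD3 chains. They kill with granules that carry perforin and granzymes, and they release interferon-gamma and chemokines such as Ccl3, Ccl4, Ccl5 and Xcl1, which draw in macrophages, T cells and cross-presenting dendritic cells. In tumors, lasting stimulation raises inhibitory receptors such as Pdcd1 (PD-1), Lag3 and Havcr2 (TIM-3), while a reserve with Tcf7 keeps a memory-like state. Type I interferon switches on antiviral genes in T cells as in other cells.

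The label was checked with T cell genes that the rule did not use. Levels are given as CPM, the UMIs of a gene per 1e+06 UMIs of the summed members. Cd3e, a signalling chain of the receptor, was at 861 and 636 CPM in Control and IR over all members, and Trac, the constant region of the receptor alpha chain, at 682 and 528 CPM. The median member held 6422 UMIs in Control and 8888 in IR, and no member's barcode occurred in the other library.

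Myeloid RNA was present in part of the members. UMIs of 16 myeloid markers were counted in each member, and a limit of 0.1% of its UMIs was set after the data had been seen. Members at or below it, called low-myeloid members, were 158 in Control, 70.5% (64.1% to 76.4%), and 106 in IR, 60.9% (53.2% to 68.2%). Between 0.1% and 0.3% lay 27 Control and 9 IR members, and above 0.3% lay 39 and 59. Low-myeloid members held a median of 6054 UMIs in Control and 6263 in IR, and the other members 8128 and 14112. All 9 Control and 16 IR members in the top 6% of their library by Scrublet doublet score were among the others. Cd3e was detected in 97.5% of Control and 95.3% of IR low-myeloid members, and in 84.8% and 88.2% of the others.

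**Figure D1:**
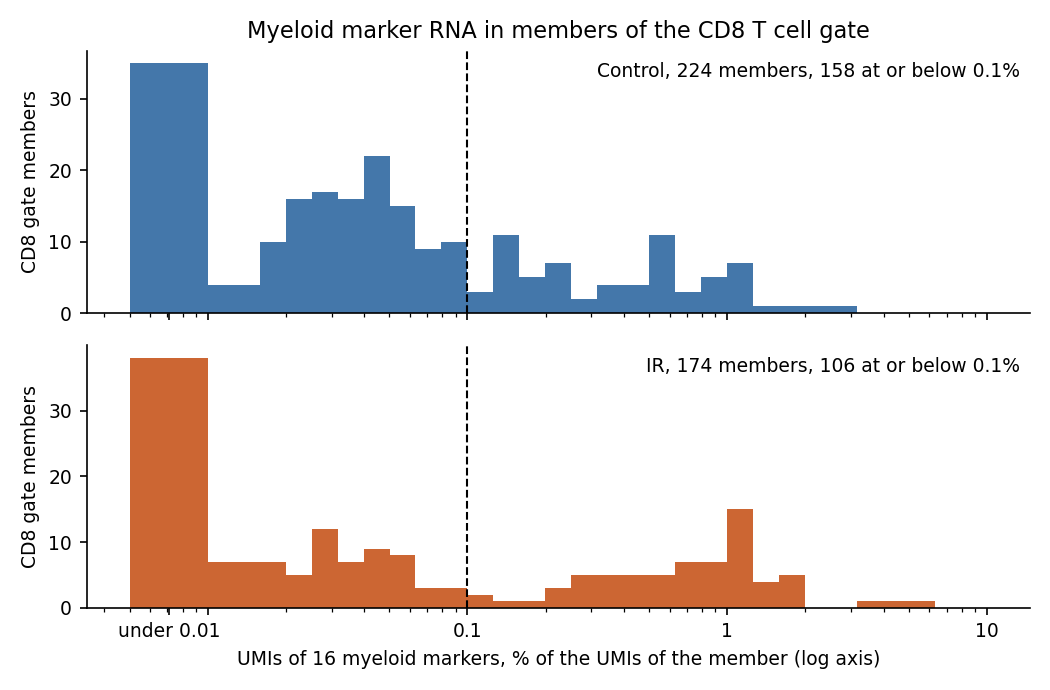
Number of members of the CD8 T cell gate (vertical axis) by the share of their UMIs that came from 16 myeloid markers (horizontal axis), in Control and IR. The dashed line marks 0.1%, at or below which 158 of 224 Control members and 106 of 174 IR members lie.

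Markers of other cells differed between the libraries. The 12 macrophage markers summed to 3403 and 5695 CPM in Control and IR over all members and to 871 and 335 CPM over low-myeloid members. The myeloid limit used the macrophage and monocyte markers except Fcer1g, Tyrobp, Plac8 and Ms4a4c, and also S100a8 and S100a9. Low levels of the markers it used therefore follow from the selection of low-myeloid members. Fcer1g and Tyrobp, which lymphocytes also express, were at 408 and 202 CPM in Control and 91.5 and 72.5 CPM in IR low-myeloid members. The 6 neutrophil markers summed to 93.8 and 943 CPM over all members and to 86.6 and 143 CPM over low-myeloid members, where Il1r2 held 90 and 119 UMIs and Retnlg, Cxcr2 and Csf3r were at 0. The 6 monocyte markers summed to 869 and 2072 CPM and to 376 and 653 CPM, the latter mainly Plac8, which lymphocytes also express. Over all members the sums were 257 and 161 CPM for NK cells, 134 and 163 CPM for dendritic cells, 19.2 and 14.4 CPM for B cells, 55.9 and 28.8 CPM for gamma-delta T cells, 26.4 and 4.47 CPM for tumor or stromal cells and 1.20 and 0 CPM for mast cells or basophils. Macrophage, monocyte and neutrophil RNA was thus higher in IR over all members, and its part in the results was not tested. Results are therefore given over all members and over low-myeloid members.

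The gate was a similar share of the immune cells in both libraries. It was 4.79% (4.19% to 5.44%) of the filtered barcodes in Control and 5.10% (4.39% to 5.89%) in IR, a ratio of 1.07 (0.878 to 1.29). Of the barcodes with a CD3 UMI and at most 5 C1q UMIs it was 36.5% (32.7% to 40.4%) in Control and 32.8% (28.8% to 37.0%) in IR, a ratio of 0.900 (0.767 to 1.06). Both intervals include equal shares. A further 198 Control and 98 IR barcodes with CD3 and CD8 UMIs were left out by the limit on C1q. Just inside that limit, at 4 to 5 UMIs of C1q, lay 8 Control and 4 IR members with 376 and 74.1 CPM of Cd8b1. Just outside, at 6 to 7 UMIs, lay 10 and 4 barcodes with 242 and 104 CPM.

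Across all genes, more were at least 2-fold higher than lower in IR over all members, and this excess was smaller over low-myeloid members. Of 8897 genes with at least 20 UMIs over both libraries, 235 (2.64%) were at least 2-fold higher in IR and 11 (0.124%) at least 2-fold lower, on the scale of CPM plus 10 that all ratios here use. Of 7120 such genes in low-myeloid members, 67 (0.941%) were higher and 46 (0.646%) lower. At any size, 49.2% of genes were higher and 50.8% lower over all members, and 49.8% and 50.2% over low-myeloid members. The median log2 ratios were -0.0054 and -0.0019.

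The 12 leading genes that were higher in IR over all members held myeloid genes, interferon-stimulated genes and 1 granzyme. They were S100a9, S100a8, Gzmg, Ccl12, Isg15, Rsad2, Ccl17, Rtp4, Acod1, Cxcl3, Ifi27l2a and Ccl2. S100a8 and S100a9, calcium-binding proteins abundant in neutrophils, were at 3.01 and 322 CPM and 3.01 and 409.7 CPM in Control and IR over all members. Among low-myeloid members they had 1 and 0 UMIs and 1 and 9 UMIs, which follows from the limit, since both are among the 16 markers. Ccl2 and Ccl12, chemokines for monocytes, were at 124 and 789.6 CPM and 6.01 and 152 CPM over all members, and at 8.47 and 20.1 CPM and 1.88 and 2.23 CPM over low-myeloid members. In the IR macrophage gate, barcodes with at least 10 C1q UMIs and no CD3 or CD8 UMI, S100a8 was at 456 CPM and Ccl2 at 1402 CPM. Gzmg, Isg15, Rsad2, Rtp4 and Ifi27l2a were at least 2-fold higher in IR among low-myeloid members too.

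The 12 leading genes that were lower in IR were Xcl1, Nrgn, Ube2c, Ifng, Ccl4, Gm156, Nr4a2, Rgs2, Inpp4b, Mmp12, Cd28 and H2afv. Among low-myeloid members Xcl1, Ccl4, Ifng and Rgs2 were at least 2-fold lower, and the intervals of Mmp12 and Gm156 included equal levels. Mmp12, a macrophage elastase, was at 284 and 151 CPM over all members but had 6 and 2 UMIs over low-myeloid members (-0.36, -0.75 to 0.32). Its log2 ratio turned to 1.48 in members with at most 0.3% myeloid UMIs and to 0.98 without the 3 richest members of each library. Gm156 was at 115 and 90.4 CPM over low-myeloid members (-0.32, -0.70 to 0.065). Nrgn, a calmodulin-binding protein, was at 337 and 145 CPM over all members and 350.2 and 270.0 CPM over low-myeloid members.

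Interferon-stimulated genes were higher in IR. Of the 40 with at least 20 UMIs over all members, 40 were higher in IR and 32 at least 2-fold, with a median log2 ratio of 1.43. Of 32 in low-myeloid members, 32 were higher and 22 at least 2-fold, with a median of 1.19, also with Ifit3, at 0 in Control, set to its floor of 3 UMIs. Promoters of 4 of them are shown because many genes of the list share a motif there. The windows run from 250 bases before to 50 after the start site (RefSeq, GRCm38.p6), in lower case, with capitals for matches on either strand to the core of the interferon-stimulated response element, 2 GAAA separated by any 2 bases. They are chr4:156200769-156201068 for Isg15, chr12:26456403-26456702 for Rsad2, chr8:71537423-71537722 for Bst2 and chr7:141266375-141266674 for Irf7, all on the minus strand.
Isg15: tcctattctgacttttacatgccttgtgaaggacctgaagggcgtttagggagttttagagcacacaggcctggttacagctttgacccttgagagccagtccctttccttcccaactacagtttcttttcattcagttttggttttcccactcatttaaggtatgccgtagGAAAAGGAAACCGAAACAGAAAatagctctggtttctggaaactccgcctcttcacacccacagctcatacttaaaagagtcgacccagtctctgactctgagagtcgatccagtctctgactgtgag
Rsad2: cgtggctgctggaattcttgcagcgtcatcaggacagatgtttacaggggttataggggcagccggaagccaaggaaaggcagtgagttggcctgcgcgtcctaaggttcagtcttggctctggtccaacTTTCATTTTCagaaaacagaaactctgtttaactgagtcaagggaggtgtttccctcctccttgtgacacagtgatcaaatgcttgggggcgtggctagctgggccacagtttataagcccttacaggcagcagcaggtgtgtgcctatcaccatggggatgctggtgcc
Bst2: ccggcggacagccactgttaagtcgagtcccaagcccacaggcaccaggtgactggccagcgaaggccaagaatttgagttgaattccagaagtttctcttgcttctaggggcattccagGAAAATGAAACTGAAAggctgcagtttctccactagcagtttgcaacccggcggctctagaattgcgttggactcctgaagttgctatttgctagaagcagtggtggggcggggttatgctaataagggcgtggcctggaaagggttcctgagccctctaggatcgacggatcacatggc
Irf7: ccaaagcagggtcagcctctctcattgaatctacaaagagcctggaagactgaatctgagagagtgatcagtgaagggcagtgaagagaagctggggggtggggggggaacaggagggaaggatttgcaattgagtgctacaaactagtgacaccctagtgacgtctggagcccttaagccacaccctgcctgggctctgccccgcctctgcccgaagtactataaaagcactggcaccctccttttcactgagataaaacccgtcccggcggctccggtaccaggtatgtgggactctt

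Isg15 held 3 overlapping matches, with first bases at -78, -72 and -66 from the start site. Bst2 held 2 overlapping matches at -130 and -124, Rsad2 held 1 at -120 on the other strand, and the letters were not in the window of Irf7. The motif was in 20 of 32 (62.5%) interferon-list genes with a window, in 10 of 13 (76.9%) of the interferon-gamma GTPase list, in 4 of 15 (26.7%) of the MHC class I list, in 4 of 18 (22.2%) cytotoxic genes and in 0 of 12 cytokine genes. Of all genes of the table, 1079 of 27025 (3.99%) held it. A match describes letters and not a bound factor.

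Ifi27l2a and Isg15 had the largest ratios of the list over low-myeloid members, whereas over all members Isg15 and Rsad2 did. Ifi27l2a, a small interferon-induced membrane protein (GRCm38 chr12:103442167-103443680, minus strand), was at 276 and 1833 CPM in Control and IR over all members and at 98.9 and 1622 CPM over low-myeloid members, a log2 ratio of 3.91 (3.64 to 4.18). Isg15, a ubiquitin-like modifier (chr4:156199424-156200818, minus strand), was at 38.5 and 465 CPM over all members and at 23.5 and 174 CPM over low-myeloid members, a log2 ratio of 2.46 (1.98 to 2.92). The ratio of Ifi27l2a was larger in low-myeloid members than in all members, and that of Isg15 was smaller.

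Regulators, sensors and surface proteins of the list had the same direction in low-myeloid members. Irf7, the factor that amplifies type I interferon, was at 12.2 and 106 CPM (log2 ratio 2.38, 1.83 to 2.88). Zbp1, a nucleic acid sensor, was at 22.6 and 135 CPM (2.15, 1.66 to 2.63). Bst2 (tetherin) was at 97.9 and 329 CPM and Ly6a (Sca-1) at 334 and 963 CPM. Rsad2, the antiviral enzyme viperin, had 0 UMIs in Control and 17 in IR, at least 6.72-fold higher against a floor of 3 UMIs per library, and Ifit3 had 0 and 28, at least 11.1-fold higher. The smallest ratio of the list was that of Ly6e, at 765 and 843 CPM.

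**Figure D2:**
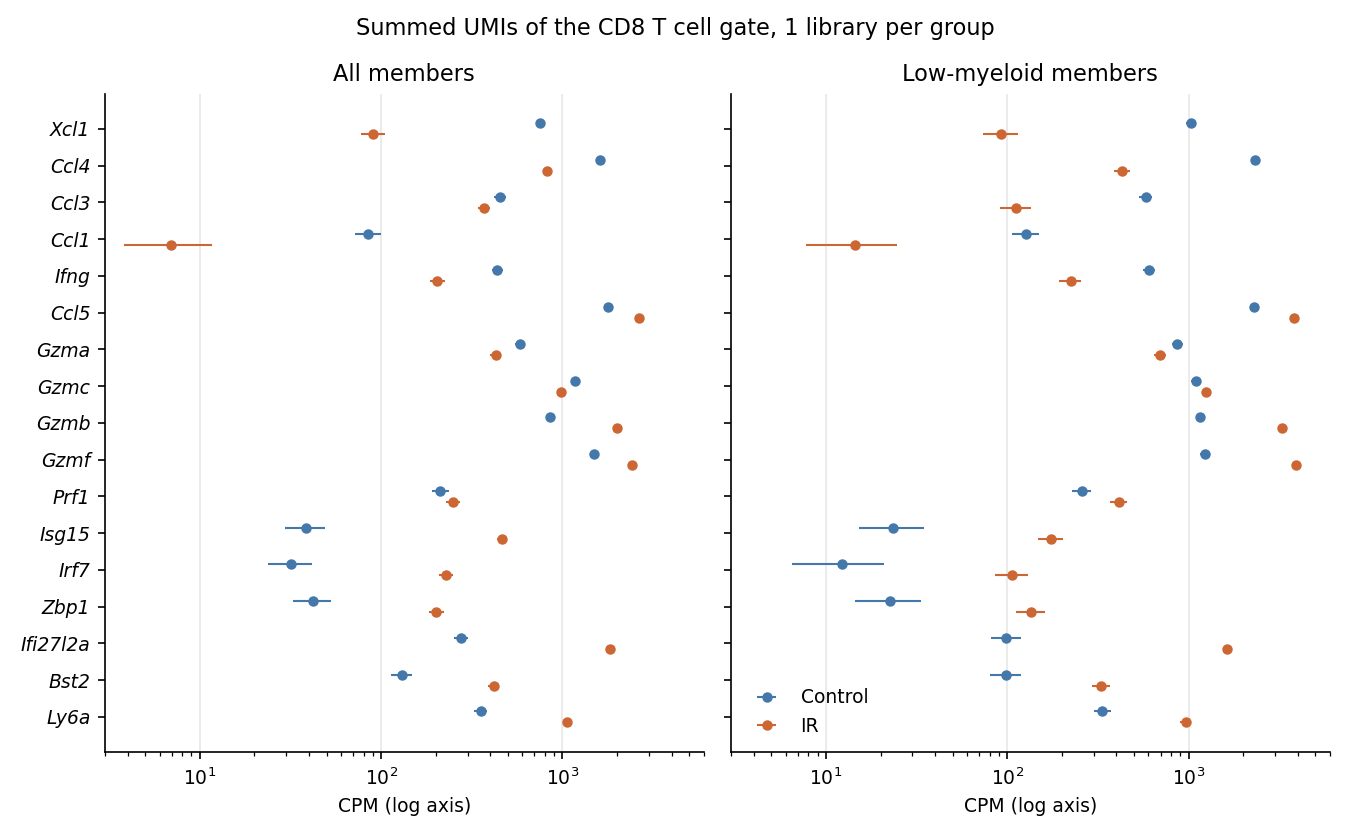
Levels of selected genes in CPM (horizontal log axis) in Control and IR, over all members of the gate and over low-myeloid members; points are 1 library each and bars are exact Poisson 95% intervals. Over low-myeloid members Xcl1 lies at 1026 and 92.6 CPM and Ifi27l2a at 98.9 and 1622 CPM in Control and IR.

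More members held these transcripts in IR. At a common depth of 1000 UMIs drawn per cell, Ifi27l2a was detected in 14.6% (9.46% to 21.0%) and 46.2% (36.5% to 56.2%) of Control and IR low-myeloid members, and without thinning in 31.6% and 71.7%. Ly6a was detected in 22.8% (16.5% to 30.1%) and 54.7% (44.8% to 64.4%) at that depth, and in 63.3% and 87.7% without thinning. The macrophage gate, with medians of 8974 and 11397 UMIs, expresses these genes itself and held Ifi27l2a in 34.2% and 72.1% and Ly6a in 34.3% and 66.9% of its cells at 1000 UMIs. Detection in members lay below those shares, so it is not read here as expression on its own. Free RNA, estimated from C1q UMIs, which the rule limits, and empty droplets at 1.41% of Control and 1.12% of IR UMIs of low-myeloid members, would supply 12.9% of their Ifi27l2a UMIs in Control and 1.58% in IR. The 2 richest low-myeloid members held 17.1% and 14.1% of Ifi27l2a UMIs and 24% and 37.8% of Isg15 UMIs.

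Interferon-gamma-induced GTPases and MHC class I genes differed by less. Of 13 genes of the GTPase list counted in low-myeloid members, 11 were higher in IR and 1, Gbp6, at least 2-fold (13.2 and 48.0 CPM), with a median of 0.38. Over all members 15 of 16 were higher, 3 at least 2-fold, with a median of 0.61. In both sets 17 of 17 genes of MHC class I presentation and the immunoproteasome were higher and none 2-fold, with medians of 0.37 and 0.36. Psmb8, an immunoproteasome subunit, was at 542 and 870.2 CPM over low-myeloid members (0.67, 0.52 to 0.83), and B2m, the light chain of class I, at 3158 and 3611 CPM (0.19, 0.12 to 0.26).

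**Figure D3:**
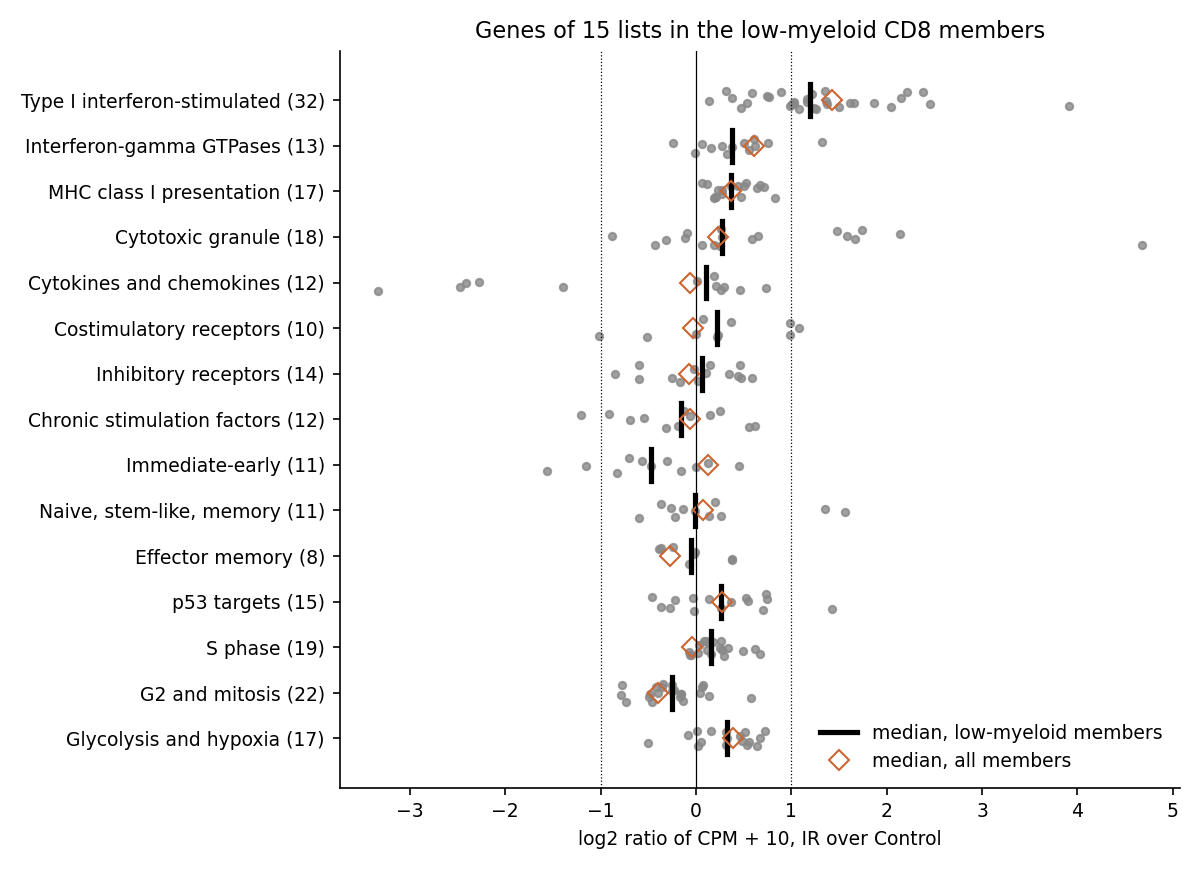
Log2 ratio of CPM plus 10, IR over Control (horizontal axis), of the genes of each list with at least 20 UMIs in low-myeloid members, with list medians over low-myeloid members and over all members. All 32 interferon-stimulated genes lie above 0, with a median of 1.19, and 5 of 12 cytokine genes lie past the lower 2-fold limit.

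Several chemokines and interferon-gamma were lower in IR. Xcl1, the ligand of the Xcr1 receptor on cross-presenting dendritic cells (chr1:164931644-164935527, minus strand), was at 754 and 90.4 CPM in Control and IR over all members. Over low-myeloid members it was at 1026 and 92.6 CPM, a log2 ratio of -3.34 (-3.64 to -3.04), and over the other members at 273 and 88.6 CPM. It was lower in IR in both sets.

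Ccl3 and Ccl4, inflammatory chemokines, are neighbours (chr11:83647844-83649355, minus strand, and chr11:83662584-83664683, plus strand). Ccl4 was at 1619 and 823 CPM over all members and at 2313 and 428 CPM over low-myeloid members, a log2 ratio of -2.41 (-2.56 to -2.25). Ccl3 was at 453 and 369 CPM over all members and at 580.0 and 112 CPM over low-myeloid members (-2.28, -2.57 to -1.99). In the other members both ran the opposite way, with Ccl4 at 394 and 1140.3 CPM and Ccl3 at 228 and 575 CPM. The macrophage gate held Ccl4 at 215 and 894 CPM, and the part of myeloid RNA in the smaller difference over all members was not tested.

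Ifng, the gene of interferon-gamma (chr10:118441046-118445892, plus strand), was at 438 and 204 CPM over all members and at 604 and 223 CPM over low-myeloid members, a log2 ratio of -1.40 (-1.63 to -1.17). Ccl1, a ligand of Ccr8, was at 126 and 14.5 CPM over low-myeloid members (-2.47, -2.99 to -1.91), and its 2 richest Control members held 66.4% of its UMIs. Ccl5 differed in the other direction, at 1791 and 2632 CPM over all members and 2281 and 3802 CPM over low-myeloid members (0.73, 0.66 to 0.81). Tnf was at 28.9 and 144 CPM over all members but at 23.5 and 31.2 CPM over low-myeloid members (0.30, -0.31 to 0.89), an interval that includes equal levels. Of 12 counted cytokine genes, 7 were higher in IR among low-myeloid members, none by 2-fold, and 5 lower, all 5 at least 2-fold, with a median of 0.10. Over all members 4 were higher, 1 at least 2-fold, and 8 lower, 3 at least 2-fold, with a median of -0.065.

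Fewer members held Xcl1 in IR. At 1000 UMIs per cell it was detected in 22.2% (15.9% to 29.4%) and 6.60% (2.70% to 13.1%) of Control and IR low-myeloid members, in 48.1% and 19.8% without thinning, and in 1.92% and 2.05% of the macrophage gate at 1000 UMIs. Ifng was detected in 24.7% (18.2% to 32.2%) and 15.1% (8.88% to 23.4%), against 0.524% and 0.372% of the macrophage gate, and without thinning in 57.0% and 48.1%. The intervals of Xcl1 stood apart and those of Ifng overlapped.

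Part of the chemokine RNA lay in few members. The 3 low-myeloid members richest in Ccl4 held 53.8% and 52.3% of its UMIs in Control and IR, and the levels without them were 1098 and 209.8 CPM. The 3 richest in Xcl1 held 24.9% and 45.8%, and the levels without them were 786 and 53.2 CPM. Both genes were lower in IR without those members. In Control, Ccl3 was detected in 31 of 76 (40.8%, 29.6% to 52.7%) low-myeloid members with Xcl1 and in 13 of 82 (15.9%, 8.72% to 25.6%) without it, at medians of 7167 and 4629 UMIs. In IR these numbers were 4 of 21 (19.0%) and 21 of 85 (24.7%), at medians of 8697 and 6024 UMIs.

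**Figure D4:**
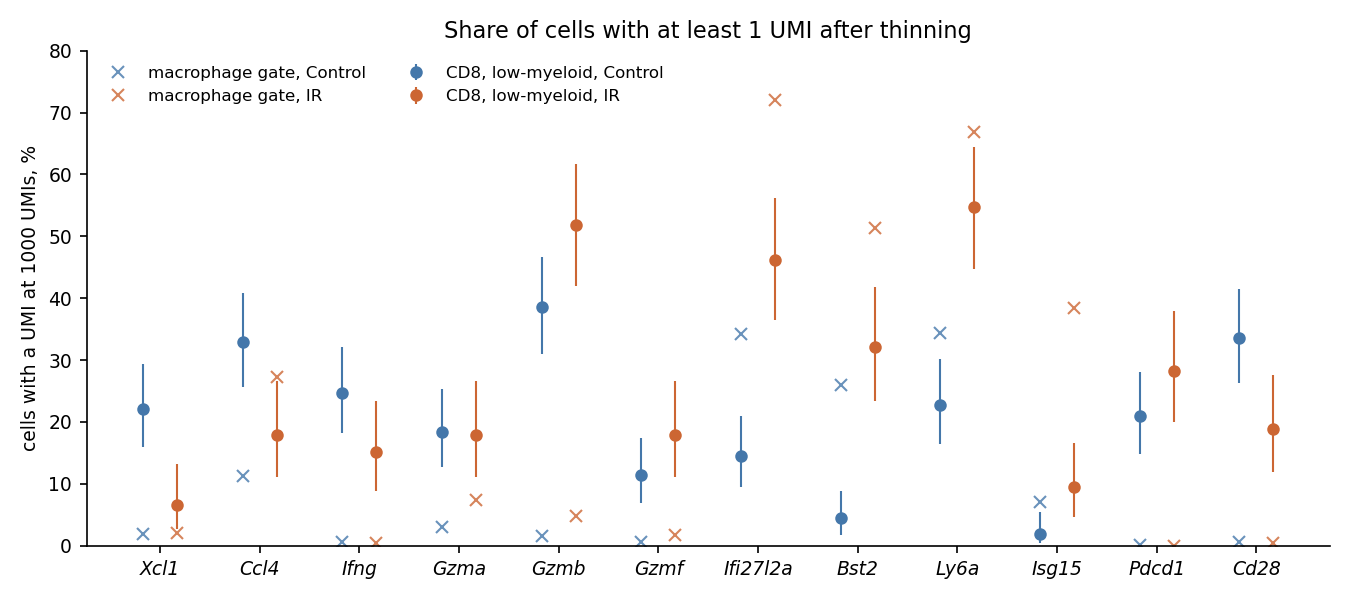
Share of cells with at least 1 UMI of each gene after drawing 1000 UMIs per cell, for low-myeloid CD8 members (with exact binomial 95% intervals) and for the macrophage gate, in Control and IR. Xcl1 was detected in 22.2% and 6.60% and Ly6a in 22.8% and 54.7% of Control and IR low-myeloid members.

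Cytotoxic granule genes did not share 1 direction. Of 18 counted in low-myeloid members 13 were higher in IR, 6 at least 2-fold, with a median of 0.27. Over all members 10 of 19 were higher, 4 at least 2-fold, with a median of 0.23. Gzmb, the main pro-apoptotic granzyme (chr14:56258838-56262260, minus strand), was at 852 and 1989 CPM over all members and at 1159.9 and 3258 CPM over low-myeloid members, a log2 ratio of 1.48 (1.39 to 1.58). It was detected in 60.8% and 73.6% of low-myeloid members and, at 1000 UMIs, in 38.6% and 51.9%, against 1.57% and 4.84% of the macrophage gate. Gzmk, a granzyme of memory-like cells, was at 26.4 and 99.3 CPM (1.59, 1.09 to 2.08), and Prf1, perforin, at 258 and 411 CPM (0.65, 0.43 to 0.87). Gzma was lower, at 868 and 697 CPM over low-myeloid members (-0.31, -0.46 to -0.17).

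Gzmd, Gzme, Gzmf and Gzmg lay in few members. Gzmf was at 1491 and 2412 CPM over all members and at 1226 and 3906 CPM over low-myeloid members (1.66, 1.57 to 1.76). Without the 3 richest members of each library it was at 359 and 1213 CPM over low-myeloid members but at 895 and 867 CPM over all members. In the members above the myeloid limit Gzmf was lower in IR, at 1959 and 1213 CPM. Over low-myeloid members Gzmd was at 140.3 and 652 CPM and Gzme at 76.3 and 279 CPM, and without the 3 richest at 67.4 and 145 and 42.4 and 77.3 CPM. Over all members without them Gzmd was at 98.1 and 126 CPM, and Gzme was lower in IR, at 78.1 and 53.5 CPM. Gzmg had 1 and 241 UMIs, of which 2 IR members held 97.9%. Over all members its log2 ratio was 3.93, and 0.60 without the 3 richest members of each library. The last 300 bases of the Gzmf and Gzmg transcripts were 88.2% identical and those of Gzmb and Gzmf 49.4%, so reads of Gzmd to Gzmg may be split among them and their single values are uncertain. Gzmc was detected in 24 of 36 IR low-myeloid members with Gzmf (66.7%) and in 14 of 70 without it, at medians of 9093 and 5743 UMIs. NK cells with little myeloid RNA, described below, held more of both genes. There Gzmf was at 4818 and 7378 CPM and Gzmc at 16756 and 17669 CPM in Control and IR. Of all members, 18 Control and 17 IR held a UMI of the NK receptor genes Ncr1, Klrb1c or Klra8. The part of NK cell RNA in these granzyme levels was not tested.

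Costimulatory receptors had no common direction. Of 10 counted in low-myeloid members 7 were higher in IR, 1 at least 2-fold, and 3 lower, 1 at least 2-fold, and over all members 5 were higher and 5 lower, none by 2-fold. Tnfrsf4 (OX40) was at 123 and 271 CPM (log2 ratio 1.08, 0.78 to 1.37), Tnfrsf18 (GITR) at 238 and 482 CPM (0.99, 0.77 to 1.21) and Tnfrsf9 (4-1BB) at 118 and 242 CPM (0.98, 0.68 to 1.29). Over all members they were at 103 and 148, 198 and 296 and 104 and 146 CPM. Cd28, which gives the second signal of priming, was lower, at 299.9 and 162 CPM over all members and 352 and 244 CPM over low-myeloid members (-0.51, -0.75 to -0.27). Crtam, a receptor induced on activated CD8 T cells, was at 44.3 and 16.7 CPM over low-myeloid members (-1.02, -1.60 to -0.41).

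Inhibitory receptors were within 2-fold, 15 of 15 counted over all members and 14 of 14 in low-myeloid members, with medians of -0.077 and 0.063. Pdcd1 was at 221 and 198 CPM over all members and at 246 and 344 CPM over low-myeloid members (0.47, 0.23 to 0.70). Lag3 was at 252 and 268 CPM and at 309.8 and 472 CPM (0.59, 0.39 to 0.80). Cd244a had the lowest ratio of the list in low-myeloid members, at 60.3 and 29.0 CPM (-0.85, -1.38 to -0.31). Havcr2 was detected in 37 of 78 (47.4%, 36.0% to 59.1%) IR low-myeloid members with Pdcd1 and in 2 of 28 (7.14%, 0.877% to 23.5%) without it, at medians of 7448 and 4596 UMIs. In Control it was detected in 34 of 90 (37.8%, 27.8% to 48.6%) with Pdcd1 and in 15 of 68 (22.1%, 12.9% to 33.8%) without it. The Control medians were 7167 and 4334.5 UMIs, and the Control intervals overlapped.

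Immediate-early genes were mostly lower in IR low-myeloid members. Of 11 counted there 8 were lower, 2 at least 2-fold, with a median of -0.47, against 0.12 and 5 of 13 over all members. Fos was at 210.0 and 64.7 CPM (-1.56, -1.94 to -1.18) and Fosb at 382 and 166 CPM (-1.15, -1.42 to -0.89), whereas over all members Fos was at 311 and 335 CPM. Of other lists, Nr4a3, a nuclear receptor induced by the T cell receptor, was at 239 and 98.2 CPM (-1.20, -1.54 to -0.87), and Rgs2, a brake on G protein signalling, at 497 and 197 CPM (-1.29, -1.53 to -1.05). Tox, a factor of chronic stimulation, was at 52.7 and 23.4 CPM (-0.91, -1.46 to -0.34). Immediate-early genes also respond to tissue dissociation, whose part was not tested.

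Further lists had medians on both sides of 0. Over all members and low-myeloid members the medians were -0.13 and 0.16 for the T cell receptor and its proximal signalling, -0.060 and -0.15 for factors of chronic stimulation, -0.033 and 0.22 for costimulatory receptors, 0.10 and -0.23 for tissue residence, and 0.33 and 0.030 for apoptosis regulators.

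Memory and effector genes had no common direction. The memory medians were 0.073 over all members and -0.014 over low-myeloid members, and the effector medians -0.27 and -0.049. Il7r, the interleukin-7 receptor, was at 65.0 and 182 CPM over low-myeloid members (1.36, 0.98 to 1.73), and Ccr7, a homing receptor for lymph nodes, at 35.8 and 125 CPM (1.56, 1.11 to 2.01). The 3 richest low-myeloid members held 60.5% and 51.8% of Ccr7 UMIs in Control and IR, and the levels without them were 14.6 and 61.5 CPM. At 1000 UMIs Ccr7 was detected in 5.06% (2.21% to 9.73%) and 7.55% (3.31% to 14.3%) of low-myeloid members, and these intervals overlapped. Tcf7 was at 15.1 and 20.1 CPM (0.26, -0.40 to 0.91). At 1000 UMIs, Tcf7 without Havcr2 was found in 6 of 224 (2.68%, 0.989% to 5.74%) Control and 5 of 174 (2.87%, 0.939% to 6.58%) IR members, and Havcr2 without Tcf7 in 9 of 224 (4.02%, 1.85% to 7.49%) and 11 of 174 (6.32%, 3.20% to 11.0%). Without thinning the shares were 7.14% and 11.5% for Tcf7 without Havcr2 and 30.4% and 42.0% for Havcr2 without Tcf7. Among members with at most 10% mitochondrial UMIs, a subset of the gate, 19 of 205 Control (9.27%) and 14 of 164 IR (8.54%) held Havcr2 without Tcf7. The random draw of 1000 UMIs thus moved these small counts, and the direction of the Havcr2 share is not settled.

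Genes of mitosis were lower in IR by small amounts. Over all members 22 of 23 were lower, 1 (Ube2c) by 2-fold, with a median of -0.40, and 17 of 22 in low-myeloid members, none by 2-fold, with a median of -0.25. Mki67, a marker of cycling cells, was at 112 and 118 CPM over low-myeloid members (0.072, -0.29 to 0.43). S phase genes had medians of -0.038 and 0.16. At least 2 UMIs of either list at 1000 UMIs, a range and not a cell state, were held by 99 of 224 (44.2%, 37.6% to 51.0%) Control and 66 of 174 (37.9%, 30.7% to 45.6%) IR members.

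Targets of p53, which DNA damage can switch on, had medians of 0.27 over all members, with 15 of 19 higher in IR, and 0.26 over low-myeloid members, with 9 of 15 higher. Cdkn1a (p21) was at 172 and 353 CPM over all members and 58.4 and 102 CPM over low-myeloid members (0.71, 0.28 to 1.13), and Bax, which permeabilizes mitochondria, at 152 and 259 CPM (0.73, 0.45 to 1.02). Phlda3, an inhibitor of Akt, had 3 and 22 UMIs in low-myeloid members. Mdm2, the ligase that degrades p53, was at 49.9 and 33.5 CPM, a log2 ratio of -0.46.

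Genes of glycolysis were higher in IR, 16 of 17 over all members and 15 of 17 over low-myeloid members, with medians of 0.39 and 0.33. Ldha, lactate dehydrogenase, was at 1152 and 1797 CPM over low-myeloid members (0.64, 0.53 to 0.74). Readers, writers and erasers of m6A, the RNA mark the study is about, stayed within 2-fold in both sets, with medians of -0.15 and 0.011. Ythdf2, the reader that speeds decay of marked RNA, was at 39.1 and 51.6 CPM over all members and 35.8 and 51.3 CPM over low-myeloid members (0.42, -0.11 to 0.94), an interval that includes equal levels.

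Selected genes, only some of them leading genes, were also read in other low-myeloid lymphocytes of the same libraries. These were CD4 T cells (Cd4 without CD8 or Foxp3 UMIs, 37 Control and 24 IR cells) and NK cells (Ncr1 without CD3 or CD8 UMIs, 196 and 218 cells). The interferon median was 1.19 in CD8 members, 0.96 in CD4 cells and 0.66 in NK cells. Gzmb was higher in IR in each, at 1159.9 and 3258 CPM in CD8 members, 505 and 936 CPM in CD4 cells and 1504 and 3716 CPM in NK cells. Xcl1 was lower in IR in each, with log2 ratios of -3.34 (-3.64 to -3.04) in CD8 members, -2.26 (-3.03 to -1.53) in CD4 cells and -0.94 (-1.02 to -0.86) in NK cells. Ccl4 was at 676 and 391 CPM in CD4 cells (-0.77, -1.25 to -0.31) and at 180.4 and 245 CPM in NK cells (0.42, 0.23 to 0.61). Ifng was at 342 and 544 CPM in CD4 cells (0.66, 0.14 to 1.19) and at 86.8 and 105 CPM in NK cells (0.25, -0.014 to 0.51). Whether these ratios differ between cell types beyond the variation of tumors was not tested.

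**Figure D5:**
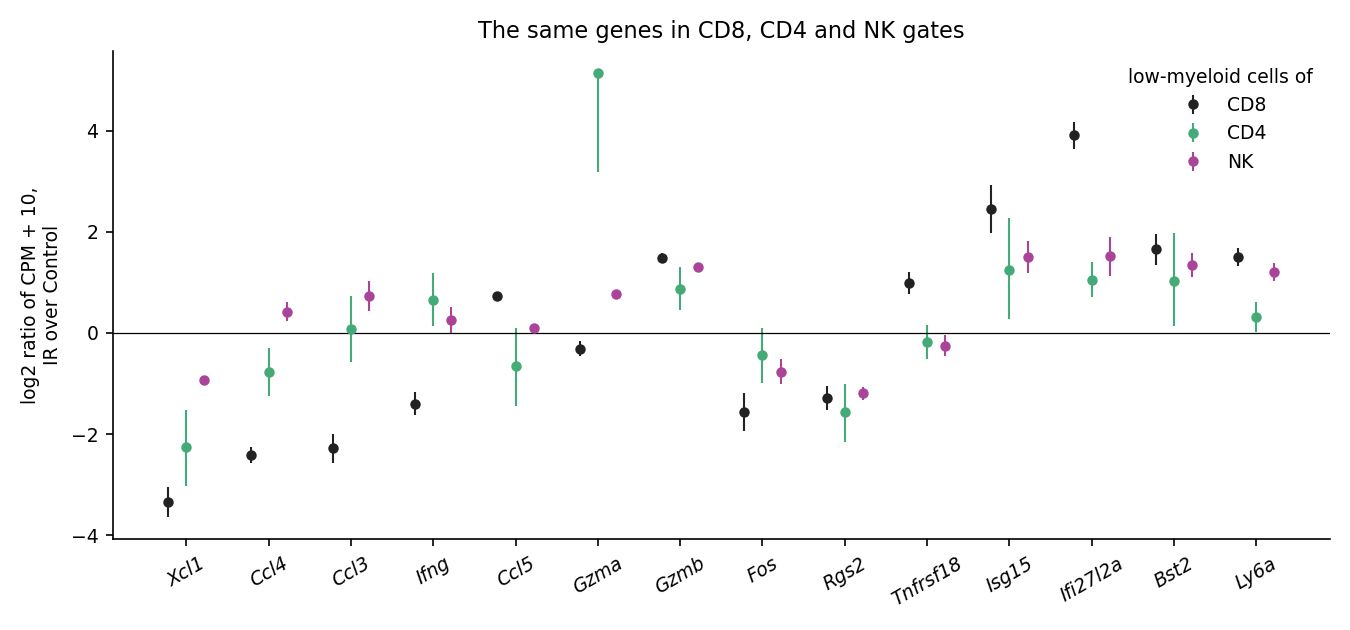
Log2 ratio of CPM plus 10, IR over Control, of selected genes in low-myeloid cells of the CD8, CD4 and NK gates; bars are exact conditional 95% intervals for counting error. Xcl1 lies below 0 in all 3 gates, whereas Ccl4 lies at -2.41 in CD8 members and at 0.42 in NK cells.

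Fcer1g, an adaptor chain of Fc and NK receptors, differed in direction with the set of members. It was at 408 and 91.5 CPM over low-myeloid members (-2.04, -2.37 to -1.72) and at 1279 and 2174 CPM over the other members. Free RNA would supply 8.44% of its UMIs in Control and 35.7% in IR low-myeloid members.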

How the data were processed

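Per the labels and the study's methods, 1 library per group was made with a 10x Chromium 3' kit (v3.1) and aligned to mm10. The matrices that the authors deposited hold raw counts of UMIs for every barcode, unfiltered. The submitters' processing notes name Cell Ranger 6.0.1, and the header of the matrices names an older release. The Control matrix held 48593879 UMIs and the IR matrix 42406461, over 32285 genes, and 7 barcodes of at least 1000 UMIs occurred in both. The study removed doublets with DoubletFinder. Here no member was removed, and removal by Scrublet (scanpy 1.11.5) was an alternative.

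UMIs of the members were summed per library (Python 3.11.15, scipy 1.17.1). CPM carry exact Poisson intervals, shares exact Clopper-Pearson intervals, and ratios of CPM plus 10 exact conditional intervals; the added 10 CPM understates differences of low genes. Scripts were tested on simulated data. Leading genes were the 12 highest and 12 lowest ratios among genes with at least 100 CPM in 1 library, intervals of the CPM apart, and a ratio of the same sign and at least 0.5 in members without C1q UMIs; mitochondrial, sex-linked, receptor variable and gate genes were left out. Other genes named are examples of the lists, and some were named after their values were seen. The members and lists were chosen with earlier results of these data known. The 16 myeloid markers are those of macrophages and monocytes, without Fcer1g, Tyrobp, Plac8 and Ms4a4c, which lymphocytes also express, plus S100a8 and S100a9. Empty droplets were barcodes with 10 to 100 UMIs. Alternatives concerned the gate's limits, doublets, NK receptors, scaling (TMM, edgeR 4.0.16), thinning, free RNA and the pseudocount. Gene positions are from a GENCODE annotation of GRCm38.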

Additional observations from a re-analysis of the deposited data

Results flagged for a closer look

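The genes compared between cell types were selected by hand, and no share over all genes is given. For Ccl1, Ccl3, Ccl4, Gzma and Tnfrsf18 the direction differed between low-myeloid CD8 members and low-myeloid NK cells. Their intervals left out equal levels in both. The difference between the cell types was not tested, since there was 1 library per group. The log2 ratio of IR over Control was -2.47 for Ccl1 in CD8 members against 1.42 in NK cells, -2.28 for Ccl3 against 0.74, and -2.41 for Ccl4 against 0.42. Ccl1 in NK cells rested on 1 Control and 51 IR UMIs, at 0.571 and 18.2 CPM. Gzma was at -0.31 and 0.77, and Tnfrsf18 at 0.99 and -0.25. Ifng, at -1.40 and 0.25, also differed in sign, but its interval in NK cells included equal levels.

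Empty droplets, which were used to estimate free RNA and not as members, held more of 3 gene lists in IR. The cytotoxic list summed to 6711 CPM in Control and 17913 CPM in IR, the interferon list to 4580 and 9370 CPM, and the cytokine list to 3210 and 4870 CPM. In low-myeloid CD8 members the cytotoxic list summed to 10660.5 and 17361 CPM and the interferon list to 1987 and 5732 CPM, in the same direction as the droplets. The cytokine list summed there to 7897 and 5788 CPM, in the other direction.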

How the results depend on the processing

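With 1 library per group, every statement compares these libraries and not the conditions. No paired analysis was possible because each group has 1 library. Limits on myeloid UMIs and the removal of the richest members were chosen after the data had been seen. Of the values of shares, counts and list medians under alternatives, 259 stayed within the limits set for them, 29 moved and 2 reversed. Of those of single genes, 269 stayed, 134 moved and 5 reversed. The medians of the interferon, GTPase, MHC class I, cytotoxic, p53 and mitosis lists kept their direction under every alternative run. The share of filtered barcodes went from a ratio of 1.07 to 1.33 without C1q UMIs and 0.853 with at most 0.3% myeloid UMIs, where the share of T cell barcodes went from 0.900 to 0.720. Genes at least 2-fold higher numbered 235, but 138 with no C1q limit, 67 and 65 with at most 0.1% and 0.3% myeloid UMIs and 490 with a pseudocount of 1. Those lower numbered 11, but 29, 46, 36 and 159 under the same alternatives, 18 without the top 6% by Scrublet, 34 with a total free of mitochondrial and ribosomal protein genes, 78 in members thinned to 1000 UMIs and 32 as a mean of per-cell CPM. The interferon median was 1.97 with a pseudocount of 1, and the cytokine median -0.62 in thinned members. The memory median of 0.073 became -0.053 without the Scrublet members, -0.032 without NK receptors, -0.063 with at most 0.3% myeloid UMIs, -0.027 with the reduced total and -0.17 in thinned members. The effector median of -0.27 became -0.011 without C1q UMIs, -0.059 with both CD8 chains, -0.090 without the Scrublet members, -0.049 and -0.040 with at most 0.1% and 0.3% myeloid UMIs, and reversed to 0.085 with no C1q limit and 0.15 in thinned members. The ratio of members with Tcf7 without Havcr2, 1.07 on 6 and 5 members, was 4.12 without C1q UMIs and 5 with at most 10% mitochondrial UMIs. Each of these alternatives rested on 2 Control and 8 IR members. Both are subsets of the gate but held more such IR members than the whole gate, so the random draw of 1000 UMIs also moved these small counts. S100a8 reversed to log2 ratios of -0.13 and -0.11 with at most 0.1% and 0.3% myeloid UMIs, Ccl17 to -0.56 with at most 0.1%, and Mmp12 to 1.48 with at most 0.3% and 0.98 without its 3 richest members. The log2 ratio of Ccl4 over all members, -0.97, was -0.043 with no C1q limit and -0.45 without its 3 richest members. The causes were not tested.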

Other observations

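The rule for leading genes, applied to low-myeloid members after the data had been seen, also named genes outside the functional lists. Higher in IR were Serpine2, a protease inhibitor, at 14.1 and 118 CPM in Control and IR, Zbtb32, a transcriptional repressor, at 29.2 and 108 CPM, and Ms4a4c, a membrane protein of the monocyte marker list, at 19.8 and 108 CPM. Lower in IR were Ets1, a transcription factor of lymphocytes, at 446 and 295 CPM, and Pik3r1, the regulatory subunit of PI3 kinase, at 155 and 94.8 CPM.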
